A study of Arabidopsis thaliana with 4 samples.

Results

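The class III peroxidase family of Arabidopsis thaliana was followed here through 60 listed gene loci, chosen by name: a probe belonged to the family when the locus printed beside it in the scanner files, without its version suffix, was on the list. Of the 60 loci, 59 had a probe on the array (80 probes in all) and 54 were bright enough to be tested, out of 22438 features tested across the array. The remaining locus, AT1G05240, had no probe under that name and was not analysed here. The rule itself uses no measured value, although the family was picked with earlier results of these data known.

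Class III peroxidases are secreted enzymes of plants that use hydrogen peroxide to oxidise phenolic compounds, and they can also produce reactive oxygen in the cell wall. They stiffen walls by coupling lignin units and by cross-linking extensins, they loosen walls through hydroxyl radicals, and some of them feed the oxidative burst that follows recognition of a pathogen. The family is large, many of its genes lie beside a close relative, and many of its members are expressed mainly in roots.

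The arrays compared RNA of whole Arabidopsis plants of the Col-0 accession that overexpressed VuDREB2A, a DREB2-type transcription factor of cowpea, with RNA of wild type Col-0 plants of the same age. The first line carried the full-length factor and the other a truncated form, each under the 35S promoter, which is active in most tissues. All plants were 21 days old, untreated, and grown on vertical agar plates with 1% sucrose, 12 hours of light per day and 25 °C. There were 4 arrays with 2 colours, 2 per line: on replicate 1 the line was labelled with Cy3 and its wild type with Cy5, and on replicate 2 the dyes were exchanged. As far as the labels state, each construct was represented by 1 line, so a property of the construct and a property of that line cannot be told apart. The labels call the replicates biological, the design text counts 2 wild type replicates in all, and the lines may therefore share wild type RNA. Because RNA came from whole plants, fewer cells of a type and less RNA per cell cannot be told apart in any value below. The cowpea transgene was not measured, since the values used here are of Arabidopsis genes.

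Each value below is a log2 ratio of line over wild type on 1 array, after background correction and normalization within the array, so that positive values mean a higher level in the line. Each mean comes with the SD of its line's arrays (n = 2). A gene was called when its limma p, adjusted by the Benjamini-Hochberg method over all 22438 features, was under 0.05. Between 65.6% and 72.5% of probes were well above background in each channel, and no gene spot was saturated. Across all probes, arrays of the same line correlated at 0.51 and 0.45 and arrays of the same dye orientation at 0.54 and 0.49, against 0.14 and 0.12 for arrays that shared neither. The part of dye in single results was not tested beyond the values on each array, which are given for 30 of the 31 members that were called. All 12 listed photosynthesis genes of the leaf and 16 of 18 listed root genes passed the brightness filter, so RNA of both organs was present.

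Members of the family were called in both directions, and 10 of the 11 members called in the difference between the lines were lower in the truncated line. Of the 54 tested members, 20 were called in the full-length line, 12 higher and 8 lower than wild type, and 19 were called in the truncated line, 7 higher and 12 lower. The background over all features was 15.5% called in the full-length line (9.41% higher and 6.14% lower) and 13.2% in the truncated line (7.09% higher and 6.15% lower), against 37% and 35.2% of tested members. For that difference, truncated minus full-length, 10 members passed the threshold as lower and 1 as higher. Of all features, 3.12% passed (2.15% lower and 0.972% higher). With the replicate number added to the fit as a block, 14 members were called higher and 21 lower in the difference. Of all features called in that fit, 45.8% were higher. Among the 50 members well above background in every channel of every array, 40% were called in the full-length line, 34% in the truncated line and 20% in the difference, against 16.1%, 13.7% and 3.2% of all such features.

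The family's median lay close to wild type. The median log2 ratio over the tested members was 0.03 in the full-length line (range -0.55 to 1.34) and -0.07 in the truncated line (range -1.52 to 1.02), where the medians over all features were 0.01 and 0.00. The median size of the log2 ratio, without its sign, was 0.23 and 0.22 for members and 0.13 and 0.12 for all features. Of the 54 members, 40 stayed within 0.5 of wild type on the log2 scale in both lines. The sign was the same on both full-length arrays for 42 members and on both truncated arrays for 47. Median centring of each array in place of loess left 0 members called in the full-length line (8 at an unadjusted p under 0.05), 1 in the truncated line and 0 in the difference (8 at an unadjusted p under 0.05), so the counts rest on the normalization.

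**Figure D1:**
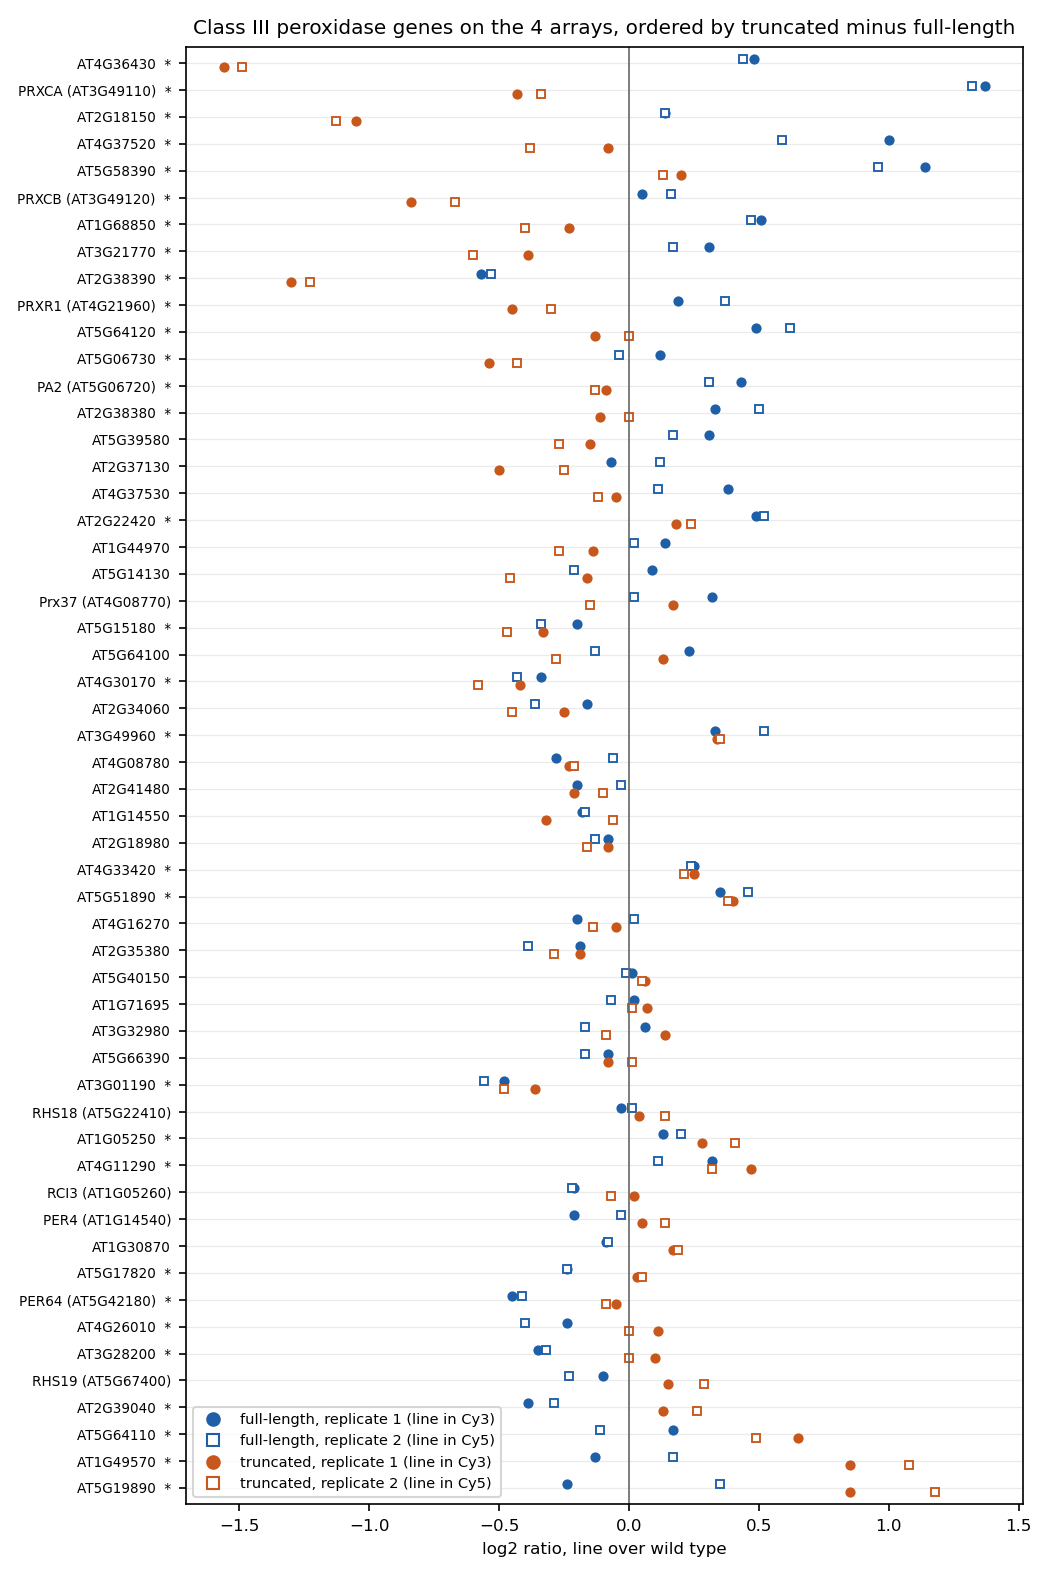
Log2 ratio of line over wild type for the 54 tested class III peroxidase genes on each of the 4 arrays, with genes ordered by the difference between the lines (truncated minus full-length) and an asterisk on genes called in any comparison. Each point is 1 array, blue for the full-length and orange for the truncated line. AT4G36430, PRXCA and AT2G18150 stand at the top with truncated values far to the left of the full-length ones, and most genes in the middle lie close to 0.

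Among the peroxidases linked to the oxidative burst, the neighbours PRXCA and PRXCB carried the changes. PRXCA (AT3G49110) and PRXCB (AT3G49120) encode apoplastic peroxidases that generate hydrogen peroxide in the response to pathogens. Of 5 tested genes of this role, 1 was called in the full-length line (PRXCA, higher), and 2 in the truncated line (both lower). The same 2 were called in the difference. These were shares of 20% in the full-length line, 40% in the truncated line and 40% in the difference. Over all features the shares were 15.5%, 13.2% and 3.12%.

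PRXCA had log2 ratios of 1.37 and 1.32 on the full-length arrays and of -0.43 and -0.34 on the truncated arrays. The lines lay on opposite sides of wild type, with both arrays of each line close together. Its normalized intensity, in arbitrary units, was 875 and 766 in the full-length line against 339 and 307 in wild type on the same arrays, and 235 and 256 in the truncated line against 318 and 325. PRXCA thus rose 2.54-fold in the full-length line (1.34 ± 0.03, adjusted p = 0.00211 by limma) and fell 1.31-fold in the truncated line (-0.39 ± 0.06, adjusted p = 0.02). The difference between the lines was -1.73 on the log2 scale (SE 0.08, adjusted p = 0.00436), a 3.32-fold lower level in the truncated line. The call of PRXCA in the truncated line was lost without truncated replicate 1 (adjusted p = 0.122).

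PRXCB had log2 ratios of 0.05 and 0.16 on the full-length arrays and of -0.84 and -0.67 on the truncated arrays. Only the truncated line stood clear of wild type, with intensities of 2144 and 2291 against 3836 and 3645. The fall in the truncated line was 1.69-fold (-0.75 ± 0.12, adjusted p = 0.00706), the full-length mean was 0.10 ± 0.08 (adjusted p = 0.367), and the difference between the lines was -0.86 (SE 0.10, adjusted p = 0.0253). The probe sequences were not used here, so cross-hybridisation between these close relatives was not tested. The other members linked to immunity, PER4 (AT1G14540), AT1G14550 and Prx37 (AT4G08770), had mean log2 ratios between -0.18 and 0.17 in the full-length line and between -0.19 and 0.09 in the truncated line, and none was called.

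**Figure D2:**
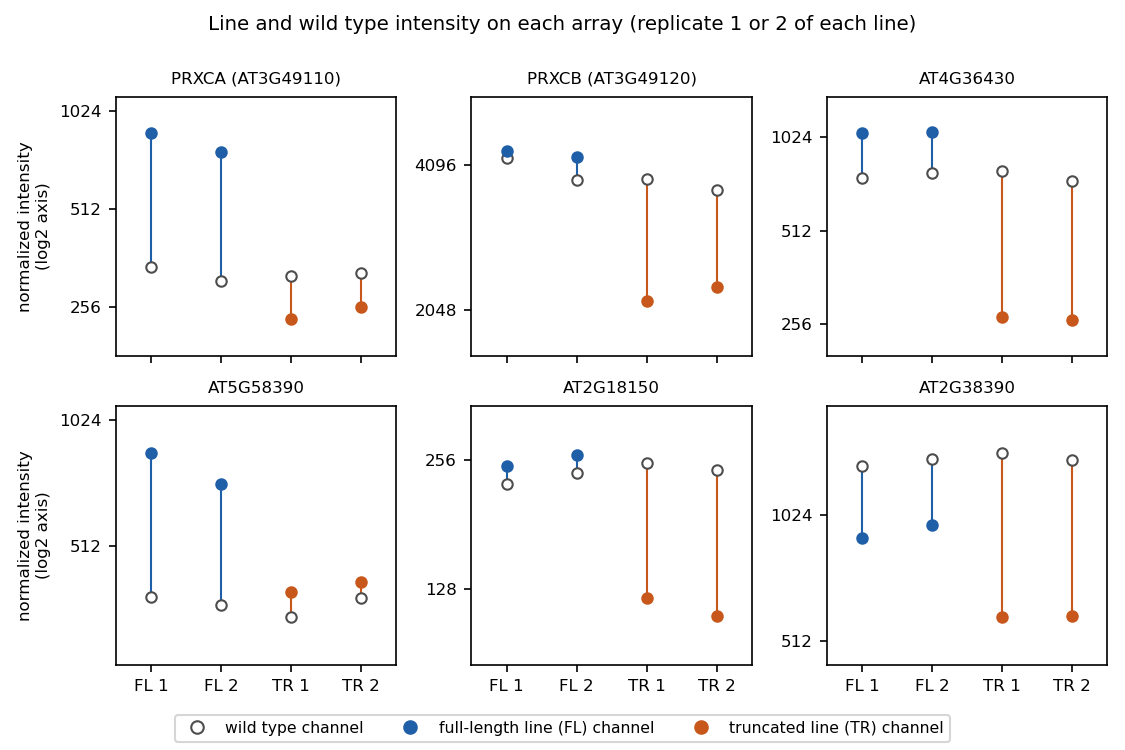
Normalized intensity on a log2 axis of the line channel (filled) and the wild type channel (open) on each array for 6 members, FL standing for the full-length and TR for the truncated line, with the replicate number. A vertical line joins both channels of an array, so its length is the log2 ratio. The open wild type points of each gene lie close together over the 4 arrays, and the filled points of AT4G36430, AT2G18150 and PRXCB drop below them in the truncated line alone.

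The lowest log2 ratio of the family was that of AT4G36430, a member placed in none of the role lists. AT4G36430 had log2 ratios of 0.48 and 0.44 in the full-length line and of -1.56 and -1.49 in the truncated line. Its intensity was 1055 and 1066 in the full-length line against 759 and 786 in wild type, and 269 and 263 in the truncated line against 795 and 738. Wild type lay between 738 and 795 on all 4 arrays, with the full-length line above it and the truncated line far below. AT4G36430 rose 1.37-fold in the full-length line (0.46 ± 0.02, adjusted p = 0.0115 by limma) and fell 2.88-fold in the truncated line (-1.52 ± 0.05, adjusted p = 0.001). The difference was -1.98 (SE 0.08, adjusted p = 0.00339), or 3.95-fold. The truncated call was the only member call that held under all 12 alternative settings.

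AT2G18150 fell in the truncated line as well. It had log2 ratios of 0.14 and 0.14 in the full-length line and of -1.05 and -1.13 in the truncated line. The full-length values lay near wild type and both truncated values far below it. It fell 2.13-fold in the truncated line (-1.09 ± 0.05, adjusted p = 0.00243), with a full-length mean of 0.14 ± 0.00 (adjusted p = 0.167) and a difference of -1.23 (adjusted p = 0.00745). The size changed with the processing: with Agilent's own log ratios the truncated value was -2.22 and the difference -2.43. Those ratios differ from the main ones in background correction and normalization at once, and the part of each was not tested.

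AT2G38390 was the member that fell furthest in the full-length line, and it fell further in the truncated line. Its log2 ratios were -0.57 and -0.53 in the full-length line and -1.30 and -1.23 in the truncated line. All 4 arrays lay below wild type, and the lines did not overlap. The mean was -0.55 ± 0.03 in the full-length line (adjusted p = 0.0075) and -1.27 ± 0.05 in the truncated line (2.41-fold lower, adjusted p = 0.0015), and the difference was -0.72 (adjusted p = 0.0235). A further probe of the gene gave means of -0.57 and -1.15.

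AT5G58390 rose in the full-length line, with log2 ratios of 1.14 and 0.96 there and of 0.20 and 0.13 in the truncated line. Every array lay above wild type, the full-length arrays by far more than the truncated ones. The mean was 1.05 ± 0.13 in the full-length line (2.07-fold, adjusted p = 0.00338) and 0.16 ± 0.05 in the truncated line (adjusted p = 0.187), and the difference was -0.89 (adjusted p = 0.0221). A dimmer probe of the gene gave means of 0.58 and 0.00, a smaller rise. AT4G37520 had log2 ratios of 1.00 and 0.59 in the full-length line and of -0.08 and -0.38 in the truncated line. It rose in the full-length line (0.79 ± 0.29, adjusted p = 0.0187), with the higher value on the array with the line in Cy3. Its truncated mean was -0.23 ± 0.21 (adjusted p = 0.278) and the difference between the lines did not pass the threshold (-1.02, adjusted p = 0.0546). A further probe gave means of 0.65 and -0.11.

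Among peroxidases of lignifying stem and xylem, 4 of 6 tested genes of this list were called higher in the full-length line and none lower. In the truncated line 1 was called higher and none lower. These were shares of 66.7% and 16.7%, against 15.5% and 13.2% of all features. The median of the list was 0.32 and 0.09. AT2G22420 belongs to the peroxidases linked to stem lignin and had log2 ratios of 0.49 and 0.52 in the full-length line and of 0.18 and 0.24 in the truncated line. It rose in the full-length line (0.51 ± 0.02, adjusted p = 0.00861 by limma), and its truncated mean was 0.21 ± 0.04 (adjusted p = 0.0737).

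AT5G64120, known as PRX71 and tied to wall strengthening and cell growth, had log2 ratios of 0.49 and 0.62 in the full-length line and of -0.13 and 0.00 in the truncated line. It rose in the full-length line (0.55 ± 0.09, adjusted p = 0.0106), while the truncated mean was -0.06 ± 0.09 (adjusted p = 0.574). It was the only gene of this list whose difference between the lines was called (-0.62, adjusted p = 0.043), and that call was lost without full-length replicate 2 (adjusted p = 0.075) or truncated replicate 1 (adjusted p = 0.0694). AT5G51890, a peroxidase of differentiating tracheary elements, had log2 ratios of 0.35 and 0.46 in the full-length line and of 0.40 and 0.38 in the truncated line. All 4 arrays were above wild type to a like degree. It rose in both lines (0.40 ± 0.08, adjusted p = 0.0169, and 0.39 ± 0.01, adjusted p = 0.0208), and each call was lost without 1 array of its line (adjusted p 0.105 without full-length replicate 2, and 0.0917 and 0.0691 without either truncated array).

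AT4G33420, another xylem peroxidase, had means of 0.25 ± 0.01 (adjusted p = 0.0438) in the full-length line and 0.23 ± 0.03 (adjusted p = 0.0559) in the truncated line. Its full-length call was lost when any 1 of the 4 arrays was left out. The remaining tested genes of the list were called in neither line: the full-length and truncated means were -0.11 and -0.15 for AT2G41480 and -0.13 and -0.04 for AT5G66390. Dimmer probes of AT5G66390 gave full-length means of -0.32 and -0.53 and truncated means of -0.02 and -0.19. PRX52 (AT5G05340), which takes part in stem lignification, was not well above background on any array. Beside these, none of 10 listed xylem marker genes was called in either line (at an unadjusted p under 0.05, 1 was in the full-length and 2 were in the truncated line), and their medians were 0.00 and 0.00.

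The Casparian strip, a lignin band in the root endodermis, is built with the help of PER64 (AT5G42180), RCI3 (AT1G05260), AT1G44970, AT4G11290 and AT5G66390. Of these 5, PER64 was called lower in the full-length line and AT4G11290 higher in the truncated line. That is 20% in each line, against 15.5% and 13.2% of all features. PER64 had log2 ratios of -0.45 and -0.41 in the full-length line and of -0.05 and -0.09 in the truncated line. The full-length line lay below wild type on both arrays and the truncated line close to it. PER64 fell in the full-length line (-0.43 ± 0.03, adjusted p = 0.0125 by limma), with a truncated mean of -0.07 ± 0.03 (adjusted p = 0.469), and the difference between the lines was not called (0.36, adjusted p = 0.0873). The call was lost without full-length replicate 1 (adjusted p = 0.0587).

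AT4G11290 had log2 ratios of 0.32 and 0.11 in the full-length line and of 0.47 and 0.32 in the truncated line. It was above wild type on all 4 arrays and was called higher in the truncated line (0.39 ± 0.11, adjusted p = 0.0383), while its full-length mean was 0.22 ± 0.15 (adjusted p = 0.131). A dimmer probe of the gene gave means of -0.21 and 0.11, so its probes disagreed, and the call was lost without truncated replicate 1 (adjusted p = 0.18). RCI3, first known as a gene induced by cold, had means of -0.21 ± 0.00 and -0.03 ± 0.07 and was called in neither line.

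Other genes of the Casparian strip fell beside PER64 in the full-length line. Of 13 tested genes of this list, 7 were called lower and 2 higher there, with a median of -0.37. In the truncated line 3 were called lower and none higher, with a median of -0.19. The shares called were 69.2% and 23.1%, against 15.5% and 13.2% of all features. CASP1 to CASP5 are membrane proteins that mark the site of the strip, and ESB1 is a dirigent protein that organises its lignin. Their full-length means were -0.45 ± 0.06 for CASP1, -0.44 ± 0.03 for CASP4, and -0.44 ± 0.01 for ESB1, and AT1G61590, a kinase gene of this list, had -0.45 ± 0.04. In the truncated line the same genes had means of -0.19, 0.03, -0.17 and -0.11 and none was called. The difference between the lines was called for none of them either (adjusted p = 0.17, 0.111, 0.158 and 0.12 by limma). The genes called higher in the full-length line were LAC3 (0.63 ± 0.09), a laccase at the strip, and AT2G16385 (0.31 ± 0.04), and both were called lower in the truncated line. There LAC3 had a mean of -0.33 ± 0.01, whereas AT2G16385 was not well above background in that line on either array, so no size is given for its fall. AT2G16385 passed the brightness filter through the full-length line alone, where it is high, so its call there was favoured by the filter. The other gene called lower in the truncated line was AT4G34600 (-0.40 ± 0.12), a call lost without replicate 2. The calls of AT2G16385 in both lines and of LAC3 in the truncated line were lost without either array of the line. The median of the list was -0.42 on the full-length array with the line in Cy3 and -0.27 on the other, and the calls of CASP1 to CASP5 were lost without the former and that of AT1G61590 without the latter.

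**Figure D3:**
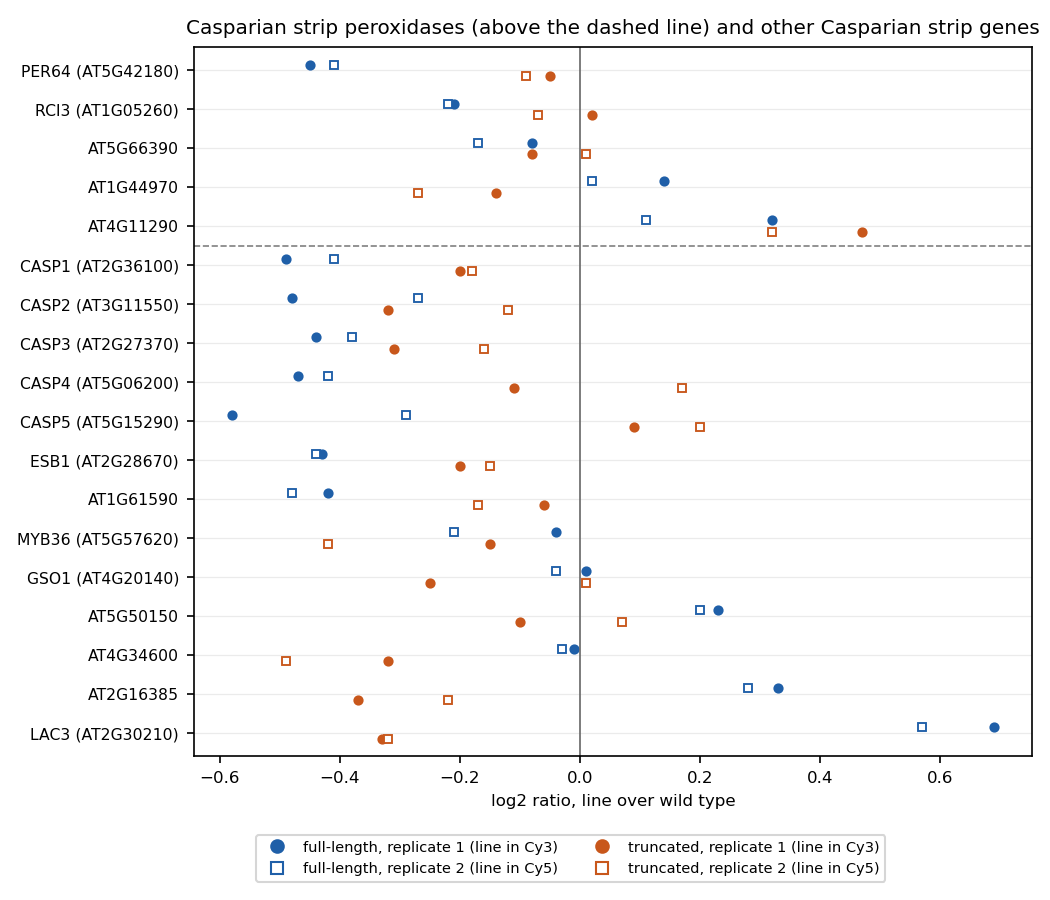
Log2 ratio of line over wild type on each array for the 5 Casparian strip peroxidases, above the dashed line, and for 13 other Casparian strip genes below it. PER64, CASP1 to CASP5, ESB1 and AT1G61590 lie left of 0 on both full-length arrays (blue), while LAC3 and AT2G16385 lie right of 0 in the full-length line and left of it in the truncated line (orange).

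The share of root in the harvested plants was not tested, and the listed root genes were called in both directions. In the full-length line, 1 of 16 tested root genes outside the hair was called higher and 2 lower, or 18.8% against 15.5% of all features. Their median was -0.16, with a range from -0.76 to 0.30. The lower genes were the water channel genes TIP2;3 (-0.76 ± 0.25) and TIP4;1 (-0.66 ± 0.02), and the higher one was the sodium transporter gene HKT1 (0.30 ± 0.01), whose call was lost without either array. In the truncated line 3 were called higher and 2 lower, or 31.2% against 13.2% of all features. The median there was 0.00, with a range from -0.58 to 2.19. The iron uptake genes IRT1 (2.19 ± 0.05) and FRO2 (2.05 ± 0.04) led the higher ones, and lay at 2.84 and 2.96 with Agilent's own log ratios. HKT1 was the remaining higher gene in the truncated line (0.81 ± 0.08, adjusted p = 0.00432 by limma). The 12 leaf photosynthesis genes had medians of -0.24 in the full-length line, -0.53 on 1 array and -0.11 on the other, and of -0.09 in the truncated line.

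Of 5 tested root hair peroxidases, 1 (20%) was called lower in the full-length line (2 at an unadjusted p under 0.05). None was called in the truncated line (2 at an unadjusted p under 0.05). The shares over all features were 15.5% and 13.2%, and the medians of the 5 genes were -0.01 and 0.05. AT4G26010, which acts in root hair growth, had log2 ratios of -0.24 and -0.40 in the full-length line and of 0.11 and 0.00 in the truncated line. It was called lower in the full-length line (-0.32 ± 0.11, adjusted p = 0.0417 by limma), and the call was lost without either array of that line (adjusted p = 0.0695 and 0.283). RHS18 (AT5G22410) and RHS19 (AT5G67400), named for their expression in root hairs, had full-length means of -0.01 ± 0.03 and -0.17 ± 0.09 and truncated means of 0.09 ± 0.07 and 0.22 ± 0.10, none called. AT5G39580 and AT5G64100, which act in root hair growth in the cold, had full-length means of 0.24 ± 0.10 and 0.05 ± 0.26 and truncated means of -0.21 ± 0.09 and -0.08 ± 0.29, none called. A dimmer probe of AT5G64100 gave means of -0.52 and -0.18, so its probes disagreed. For AT5G39580 a dimmer probe, near background, gave -0.22 and -0.10. Among 18 tested marker genes of root hairs, the full-length line had 1 called higher and 1 lower and the truncated line 1 lower. Their medians were -0.01 and 0.13, and the shares called 11.1% and 5.56%. The hair regulator RSL2 was the lower one in both lines (-0.52 ± 0.03 and -0.37 ± 0.00), with a truncated call that was lost without either array. EXT10 was the higher one in the full-length line (0.40 ± 0.17), a call lost without replicate 2.

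UPBEAT1, a transcription factor that sets the size of the root meristem, represses the peroxidase genes AT4G11290, AT4G16270 and AT5G17820. AT5G17820 had log2 ratios of -0.24 and -0.24 in the full-length line and of 0.03 and 0.05 in the truncated line. It was called lower in the full-length line (-0.24 ± 0.00, adjusted p = 0.0448), a call lost when any 1 of the 4 arrays was left out. AT4G16270 had means of -0.09 ± 0.16 and -0.10 ± 0.07 and was called in neither line. AT4G16270 and AT1G44970 also act on extensins of the developing anther, and AT1G44970 had means of 0.08 ± 0.09 and -0.20 ± 0.09, called in neither line. PER36 (AT3G50990), which acts in the seed coat, was not well above background on any array.

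Further members were called higher in the truncated line. Of these, AT5G19890, AT5G64110 and AT1G05250 were not called in the difference between the lines (adjusted p = 0.0978, 0.0998 and 0.361 by limma). AT1G49570 had log2 ratios of -0.13 and 0.17 in the full-length line and of 0.85 and 1.08 in the truncated line. Only the truncated arrays stood above wild type, with intensities of 157 and 162 against 87.3 and 76.5. AT1G49570 was called higher in the truncated line (0.96 ± 0.16, adjusted p = 0.0089 by limma) and was the single member called higher in the difference (0.94, adjusted p = 0.041). The full-length line and wild type were not well above background on the full-length arrays, and wild type was above it on 1 of 2 truncated arrays, so the size of the difference is uncertain. The gene passed the brightness filter through the truncated line alone, where it is high, so its call was favoured by the filter, and Agilent's own log ratios put it at 2.81 there with no call.

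AT5G19890 had log2 ratios of -0.24 and 0.35 in the full-length line, with the arrays on opposite sides of wild type, and of 0.85 and 1.18 in the truncated line. On neither truncated array was wild type well above background, so the level in the truncated line was at least 1.85-fold higher (fitted mean 1.02 ± 0.23, adjusted p = 0.0212). The bound sets the line's mean against the lowest signal well above background, or the probe's own where higher. This gene, too, passed the filter through the truncated line alone, and Agilent's own log ratios put it at 3.16 with no call. AT5G64110 had log2 ratios of 0.17 and -0.11 in the full-length line and of 0.65 and 0.49 in the truncated line. It was called higher in the truncated line (0.57 ± 0.12, adjusted p = 0.022), and its full-length mean was 0.03 ± 0.20. AT1G05250 had log2 ratios of 0.13 and 0.20 in the full-length line and of 0.28 and 0.41 in the truncated line. It was above wild type on all 4 arrays and was called higher in the truncated line (0.34 ± 0.09, adjusted p = 0.0318), a call lost without either truncated array (adjusted p = 0.0707 and 0.197).

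Higher values in both lines were called for AT5G51890, given above, and for AT3G49960, which had log2 ratios of 0.33 and 0.52 in the full-length line and of 0.34 and 0.35 in the truncated line. All 4 arrays lay above wild type (0.43 ± 0.14, adjusted p = 0.0203, and 0.35 ± 0.00, adjusted p = 0.0385 by limma). The full-length call was lost without replicate 2 (adjusted p = 0.123) and the truncated call without either array (adjusted p = 0.136 and 0.125).

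AT1G68850 was called in opposite directions, as were PRXCA and AT4G36430. It had log2 ratios of 0.51 and 0.47 in the full-length line and of -0.23 and -0.40 in the truncated line, so the lines lay on opposite sides of wild type. It rose in the full-length line (0.49 ± 0.03, adjusted p = 0.0138) and fell in the truncated line (-0.31 ± 0.12, adjusted p = 0.0435), and the difference was -0.80 (adjusted p = 0.026). The truncated call was lost without either array of that line (adjusted p = 0.0753 and 0.298). PRXR1 (AT4G21960) had log2 ratios of 0.19 and 0.37 in the full-length line and of -0.45 and -0.30 in the truncated line. It was called lower in the truncated line (-0.37 ± 0.10, adjusted p = 0.0391), with a full-length mean of 0.28 ± 0.13 (adjusted p = 0.0684) and a difference of -0.65 (adjusted p = 0.0492). Without truncated replicate 1 both calls were lost (adjusted p = 0.199 and 0.0624), and the difference also without full-length replicate 2 (adjusted p = 0.0739).

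PRXR1 had 5 other probes. Of these, 4 gave truncated means of -0.34, -0.48, -0.44 and -0.47 and full-length means of 0.24, 0.01, -0.04 and -0.08, so the fall in the truncated line appeared on each of them and the full-length level lay near wild type on 3. The dimmest probe, near background, gave 0.22 and 0.52. AT3G21770 had log2 ratios of 0.31 and 0.17 in the full-length line and of -0.39 and -0.60 in the truncated line. It was called lower in the truncated line (-0.49 ± 0.14, adjusted p = 0.0213) and in the difference (-0.73, adjusted p = 0.0407), and its full-length mean was 0.24 ± 0.10 (adjusted p = 0.1). The truncated call was lost without replicate 2 (adjusted p = 0.0764).

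Falls in both lines were called for AT3G01190 and AT4G30170, besides AT2G38390. AT3G01190 had log2 ratios of -0.48 and -0.56 in the full-length line and of -0.36 and -0.48 in the truncated line. All 4 arrays lay below wild type (-0.52 ± 0.05, adjusted p = 0.0103, and -0.42 ± 0.08, adjusted p = 0.0192 by limma). AT4G30170 had log2 ratios of -0.34 and -0.43 in the full-length line and of -0.42 and -0.58 in the truncated line. It too was below wild type on all arrays (-0.39 ± 0.07, adjusted p = 0.0243, and -0.50 ± 0.11, adjusted p = 0.0162), and its other probe gave means of -0.65 and -0.37. The difference between the lines was called for neither. Leaving out truncated replicate 2 ended the truncated call of AT3G01190 (adjusted p = 0.0925) and of AT4G30170 (adjusted p = 0.0548), and leaving out either full-length array ended the full-length call of AT4G30170 (adjusted p = 0.0526 and 0.121).

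AT5G15180 had log2 ratios of -0.20 and -0.34 in the full-length line and of -0.33 and -0.47 in the truncated line. It was below wild type throughout but called in the truncated line alone (-0.40 ± 0.10, adjusted p = 0.028, against -0.27 and adjusted p = 0.0629), a call lost without replicate 2 (adjusted p = 0.129). AT2G39040 had log2 ratios of -0.39 and -0.29 in the full-length line and of 0.13 and 0.26 in the truncated line, on opposite sides of wild type. It was called lower in the full-length line (-0.34 ± 0.07, adjusted p = 0.0295), with a truncated mean of 0.19 ± 0.09 (adjusted p = 0.119) and a difference that was not called (0.53, adjusted p = 0.0546). AT3G28200 had log2 ratios of -0.35 and -0.32 in the full-length line and of 0.10 and 0.00 in the truncated line. It was called lower in the full-length line (-0.33 ± 0.02, adjusted p = 0.0251), and its other probes gave full-length means of -0.41 and -0.56. Both full-length calls were lost without either array of that line (adjusted p from 0.0746 to 0.187).

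Some close neighbours in the genome had unlike calls. By the gene order of the TAIR10.1 assembly, 10 pairs of listed loci had no gene between them, and PRXCA and PRXCB had 1. AT2G38380, beside AT2G38390, had log2 ratios of 0.33 and 0.50 in the full-length line and of -0.11 and 0.00 in the truncated line. It was called higher in the full-length line (0.41 ± 0.12, adjusted p = 0.0218 by limma), where its neighbour was called lower, and had a mean of -0.05 ± 0.07 in the truncated line, where AT2G38390 fell 2.41-fold. The call of AT2G38380 was lost without full-length replicate 2 (adjusted p = 0.125).

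PA2 (AT5G06720) had log2 ratios of 0.43 and 0.31 in the full-length line and of -0.09 and -0.13 in the truncated line. It was called higher in the full-length line (0.37 ± 0.08, adjusted p = 0.0206), a call lost without replicate 1 (adjusted p = 0.149). Its neighbour AT5G06730 had log2 ratios of 0.12 and -0.04 in the full-length line and of -0.54 and -0.43 in the truncated line, and was called lower in the latter (-0.49 ± 0.07, adjusted p = 0.0177), a call lost without replicate 1 (adjusted p = 0.0593). In the cluster on chromosome 5, AT5G64100 was called in neither line (means of 0.05 and -0.08), AT5G64110 was called higher in the truncated line, and AT5G64120 was called higher in the full-length line. AT4G37530, beside AT4G37520, had means of 0.24 ± 0.19 and -0.09 ± 0.05 and was called in neither. The pairs AT1G14540 (PER4) with AT1G14550 and AT4G08770 (Prx37) with AT4G08780 had no call, with means between -0.22 and 0.17. AT2G18140, beside AT2G18150, was not well above background on any array. No difference between neighbours was tested, since each probe has its own response.

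**Figure D4:**
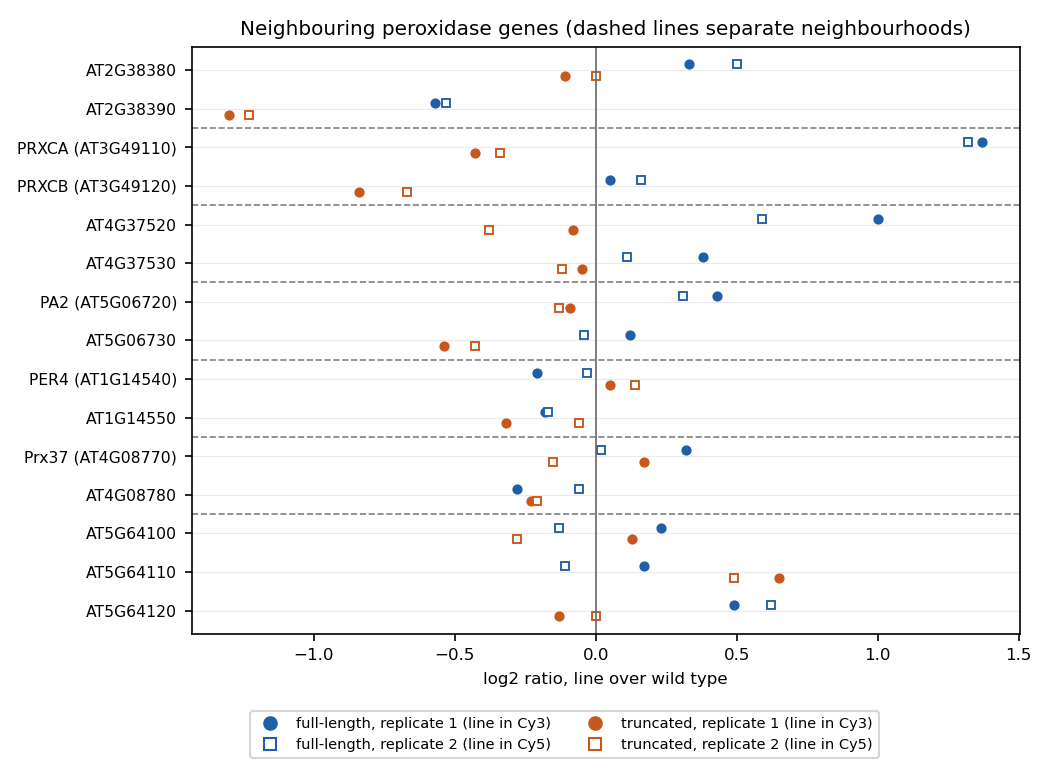
Log2 ratio of line over wild type on each array for neighbouring peroxidase genes, with dashed lines between the neighbourhoods. AT2G38380 and AT2G38390 lie on opposite sides of 0 in the full-length line (blue), and PRXCA lies far right of PRXCB there, while both are left of 0 in the truncated line (orange).

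The members without a call numbered 23. Their means ranged from -0.29 (AT2G35380) to 0.24 in the full-length line and from -0.37 (AT2G37130) to 0.22 in the truncated line. AT2G34060 was below wild type on all 4 arrays (means of -0.26 ± 0.14 and -0.35 ± 0.14, adjusted p = 0.0985 and 0.0543 by limma). AT3G32980 had means of -0.05 ± 0.16 and 0.03 ± 0.16, and of its dimmer probes 1 gave -0.45 in the full-length line. AT1G30870, AT1G71695, AT2G18980 and AT5G40150 lay between -0.12 and 0.18 in both lines, and AT5G14130 had means of -0.06 ± 0.21 and -0.31 ± 0.21. For AT1G71695 a dimmer probe gave means of -0.30 and -0.08, and for AT2G37130 a dimmer probe gave -0.26 and -0.53. A miss of the threshold does not show that these genes equalled wild type. Besides PRX52, PER36 and AT2G18140, the members AT3G03670 and AT4G17690 were not well above background in any channel, and no ratio is given for these 5. Of 13 further loci known as members of the family but outside the list, all had a probe, 4 were tested and none was called in the full-length line (1 at an unadjusted p under 0.05) or in the truncated line (0).

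Genes that supply or compete for the substrates of these enzymes were counted from lists of their own. NADPH oxidases make the superoxide from which apoplastic hydrogen peroxide forms, and of 8 tested, none was called in the full-length line (4 at an unadjusted p under 0.05) and 1, RBOHB (0.28 ± 0.05), was called higher in the truncated line. Ascorbate peroxidases and catalases remove hydrogen peroxide inside the cell. Of 10 tested genes listed with these enzymes, 2 were called higher in the full-length line (APX1, 0.43 ± 0.21, and CAT3, 0.29 ± 0.02). Called lower there were 2 (TAPX, -0.36 ± 0.14, and TL29, -0.30 ± 0.09). None was called in the truncated line (4 at an unadjusted p under 0.05). In the full-length line 0% of the NADPH oxidases and 40% of this list were called, against 15.5% of all features. The shares in the truncated line were 12.5% and 0%, against 13.2% of all features. Whether each listed gene has this enzyme activity was not tested. With median centring in place of loess, CAT3 lay at -0.05 in the full-length line. The calls of CAT3 and TL29 were lost without either full-length array, that of APX1 without replicate 1 and that of TAPX without replicate 2. With the mean of all probes of a gene, the calls of APX1 and CAT3 were lost as well.

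Monolignol synthesis supplies the units that peroxidases and laccases couple into lignin. Of 17 tested genes, the full-length line had 3 called higher and 1 lower and the truncated line 7 higher and none lower. Their medians were 0.06 and 0.20. The shares called were 23.5% and 41.2%, against 15.5% and 13.2% of all features. The alcohol dehydrogenase gene CAD5 led in the full-length line (1.00 ± 0.13, against 0.13 ± 0.13 in the truncated line, adjusted p of the difference 0.0318). PAL1, which starts the pathway, led in the truncated line (0.62 ± 0.03, against 0.06 ± 0.04, adjusted p of the difference 0.0384), and the call of its difference was lost when any 1 of the 4 arrays was left out. C4H (0.29 and 0.58) and 4CL1 (0.33 and 0.50) were called higher in both lines. Their full-length calls were lost without either array of that line, and with median centring C4H lay at -0.01 and 4CL1 at 0.05 there. With the mean of all probes of a gene, the calls of 4CL1 in both lines were lost. PAL4 was the lower gene in the full-length line (-0.35 ± 0.09, lost without either array), and OMT1 (0.48 ± 0.16, lost without replicate 1) was called higher in the truncated line. Of 13 tested laccases, 3 were called higher in the full-length line (LAC3, IRX12 at 0.43 ± 0.05 and LAC11 at 0.25 ± 0.06). In the truncated line LAC12 was called higher (0.31 ± 0.10) and LAC7 (-0.62 ± 0.32) and LAC3 lower. The share called was 23.1% in each line. Leaving out either array of the line ended the calls of LAC11, LAC12 and RBOHB, and leaving out 1 of its arrays ended those of IRX12 and LAC7. Taking the mean of all probes of a gene also ended the calls of IRX12 and RBOHB.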

How the data were processed

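RNA of whole plants was hybridised to Agilent 2-colour arrays (4 arrays, 2 per line, dyes swapped). Per the file headers, the authors read the scans with the software Agilent Feature Extraction, version 10.7.3.1. The deposited scanner files give median signal intensity and local background per spot and channel, and a LogRatio column (log10 of Cy5 over Cy3). In the deposited value table, each log2 ratio sets the line over wild type. Outlier-marked spots (20 to 50 gene spots per array) were left out first, background was corrected with normexp (offset 50) and ratios were normalized by loess within arrays. The brightest probe of a gene was kept. A feature was tested if its signal was well above background in a line on both of that line's arrays, or in wild type on all 4. limma 3.58.1 in R 4.3.3 fitted both lines together (2 residual and 3.18 prior degrees of freedom). P-values measure the spread between these arrays, dye included, and the number of arrays limits the precision. Alternatives covered background, normalization, filters, probes, the replicate block and leaving out each array.

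The members and gene lists were chosen with earlier results of these data known. Array values are given for 30 of the 31 called members, those with the largest log2 value in either line or in the difference. Of the other lists, some of the called genes are named. Of 20337 tested loci, 20139 matched the TAIR10.1 gene names. The array's annotation is older, so no coordinates are given.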

Additional observations from a re-analysis of the deposited data

Results flagged for a closer look

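The difference between the lines (truncated minus full-length, log2 scale, limma adjusted p under 0.05 over all features) passed the threshold for 11 members. It was -1.98 for AT4G36430, -1.73 for PRXCA, -1.23 for AT2G18150, -0.89 for AT5G58390, -0.86 for PRXCB, -0.80 for AT1G68850, -0.73 for AT3G21770, -0.72 for AT2G38390, -0.65 for PRXR1, -0.62 for AT5G64120 and 0.94 for AT1G49570 (fitted, with the full-length line near background). It also passed for named genes of the other lists: -0.96 for LAC3, -0.87 for CAD5, -0.60 for AT2G16385 (fitted, with the truncated line near background), 0.56 for PAL1 (lost without any 1 array), 2.35 for IRT1 and 1.79 for FRO2.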

How the results depend on the processing

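With 2 arrays per line, many calls did not hold when 1 array was left out. This includes calls whose 2 arrays gave close values, such as AT5G17820 (-0.24 and -0.24 in the full-length line). Of the 50 member calls over the 3 comparisons, 48 held with no background subtraction, 49 with the mean of all probes of a gene, 30 with Agilent's own log ratios and with the deposited processed values, 33 with outlier-marked spots kept, 17 with no filter on dim probes and 1 (AT4G36430, truncated line) with median centring, and no member's called direction reversed. The main counts of members called were 20 in the full-length line, 19 in the truncated line and 11 in the difference. With median centring they were 0, 1 and 0 (8, 10 and 8 at an unadjusted p under 0.05), and over all features 8, 41 and 0 (426 at an unadjusted p under 0.05 in the last), against 3489, 2972 and 701. Median centring moved the median of all features to -0.08 and -0.02. It reversed CAT3 (-0.05) and C4H (-0.01) in the full-length line. With no filter on dim probes the member counts were 9, 5 and 3 and the counts of all features 1033, 704 and 86. With outlier-marked spots kept, 10 members and 1018 features were called in the full-length line, and 367 features in the difference. Agilent's own log ratios gave 11 members in the truncated line (1 higher and 10 lower, against 7 and 12), 3 members in the difference and 164 features in the difference, and the deposited processed values 11, 3 and 162. Leaving out 1 array at a time gave 11 to 21 members in the full-length line, 11 to 22 in the truncated line and 12 to 14 in the difference, and 1773 to 4308, 1325 to 3553 and 713 to 801 features. Where an array of a line was left out, its remaining array is assumed to vary like the other line. The cause of these changes was not tested.

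Replicate numbers coincide with dye orientation in the labels, which state no shared batch. Deviations from the line means correlated at 0.78 over 22438 features between arrays of the same number. With the replicate block, 40, 37 and 35 members (14 higher and 21 lower in the difference, against 1 and 10) and 12751, 12171 and 8782 features were called, and all 50 member calls held. All arrays came from 1 slide and 1 scan, so a slide or scan block was not run. Signal near background limits AT1G49570, AT5G19890 and AT2G16385.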
